A study of Homo sapiens with 6 samples.

Results

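IL20 and IL24 are a pair of neighbouring cytokine genes on the long arm of chromosome 1, and both were higher after HaCaT cells met the M1 protein of Streptococcus pyogenes. Each is read here by 1 probe set of the Affymetrix Human 2.0 ST array, so 2 of the 22119 probe sets measured are described. Probe sets outside the authors' deposited table carry no names here, so any others for these genes could not be found. The 2 were found by their gene symbols in that table of 497 named probe sets. It had been selected on the difference between M1 and control arrays by a SAM score and a p-value. Their signals with and without M1 protein are therefore a description with no test of that contrast, and the p-values by which the authors selected them are given only as the basis of that choice. HaCaT is a spontaneously immortalised clonal line of human skin keratinocytes, grown here without serum or calcium until nearly confluent. The M1 group had 3 samples, exposed to M1 protein, a surface virulence factor of the bacterium, at 5 µg/ml over 6 h, and the control group had 3 samples left untreated. Both groups were otherwise the same line in the same medium, and these 6 samples had been taken from 12 on the quality of their RNA. The labels call them biological replicates without naming separate days or passages, and the errors cover the spread between these samples, which may in part be technical.

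IL-20 and IL-24 are secreted proteins of the IL-10 family, and with IL-19 they form its IL-20 subfamily. All 3 bind a receptor made of the chains IL20RA and IL20RB, and IL-20 and IL-24 also bind one made of IL22RA1 and IL20RB. The bound receptors act through JAK kinases and STAT3. In skin these receptors sit mainly on keratinocytes, where the subfamily is known for epidermal thickening, altered differentiation and defence gene expression, as in psoriasis and wound healing. IL-24, also called MDA-7, is known besides for growth arrest and death of tumour cells when given in excess.

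The array annotation placed IL20 (NM_018724, probe set 16676673) at 207038699 to 207042568 of chromosome 1, plus strand, and IL24 (NM_006850, probe set 16676682) on the same strand from 207070788 to 207077484. No genome build is named for these positions. The genes lay 28219 bases apart in that annotation, and RefSeq on GRCh38.p14 gives the same spacing of 28219 bases. The span of IL24 was 6697 bases in both sources, whereas IL20 spanned 3870 bases on the array and 5659 bases in RefSeq. RefSeq gives IL20 2 start sites, 2058 bases apart, and the array signal cannot say which of them was used. IL10 and IL19 precede them on the chromosome in RefSeq, so 4 genes of the family lie side by side.

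The 250 bases before each RefSeq start are shown because the signals of both genes were higher with M1 protein and these windows hold what is nearest to their starts. All are on the plus strand of GRCh38.p14, 5′ to 3′, in lower case, with matches to the motifs named below in capitals. The windows are chr1:206863315-206863564 for the upstream start of IL20, chr1:206865373-206865622 for its downstream start and chr1:206897193-206897442 for IL24.
IL20, upstream start: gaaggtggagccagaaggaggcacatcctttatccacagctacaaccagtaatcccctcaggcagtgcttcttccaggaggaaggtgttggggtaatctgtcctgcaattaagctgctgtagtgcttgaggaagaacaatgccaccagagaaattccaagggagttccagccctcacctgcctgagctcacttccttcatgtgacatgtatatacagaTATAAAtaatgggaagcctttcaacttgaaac
IL20, downstream start: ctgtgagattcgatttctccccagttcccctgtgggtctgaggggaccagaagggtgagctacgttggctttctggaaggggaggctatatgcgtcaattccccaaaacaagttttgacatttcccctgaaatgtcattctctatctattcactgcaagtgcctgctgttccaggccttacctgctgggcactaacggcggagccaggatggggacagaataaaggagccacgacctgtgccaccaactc
IL24: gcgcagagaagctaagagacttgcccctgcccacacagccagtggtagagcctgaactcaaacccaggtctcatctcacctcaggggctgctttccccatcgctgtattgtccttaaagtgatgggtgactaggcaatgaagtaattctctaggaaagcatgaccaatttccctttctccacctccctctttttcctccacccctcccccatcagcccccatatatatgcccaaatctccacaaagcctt

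Motifs were searched on both strands: AP-1 as TGANTCA, which reads the same on both, CRE as TGACGTCA, STAT as TTCNNNGAA, C/EBP as TTGCNNAA, the TATA box as TATAAA, and the NF-kappaB consensus. The only match in the 3 windows was TATAAA, which begins 32 bases before the upstream start of IL20. Over 35114 RefSeq windows of 250 bases, TATAAA was in 10.7%, AP-1 in 6.57%, CRE in 1.65%, STAT in 6.57%, C/EBP in 9.05% and NF-kappaB in 9.96%. No match elsewhere means only that these letters are not in these windows, and nothing about the factors follows. The windows held 47.6% G and C at the upstream start of IL20, 52.8% at its downstream start and 51.6% at IL24, where the median of all windows was 58.0%.

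The medians of the 6 arrays were close on the log2 scale, but every M1 median was below every control median. They were 6.93 to 6.96 in M1 arrays and 6.99 to 7.01 in control arrays. On the first principal component the M1 arrays of replicates 1 and 3 lay at -26.69 and -26.47 and that of replicate 2 at -32.85, while the control arrays lay between 28.21 and 29.05. The changes of IL20 and IL24 are given below with and without the M1 array of replicate 2; those of other genes are given with all arrays. The 7 keratinocyte markers looked for (KRT5, KRT14 and others) were not among the named probe sets, so the identity of the line was not checked against them, and 0 of 20 markers of leukocytes, melanocytes, fibroblasts and endothelium were named there either. A signal from whole cultures cannot tell more cells that express a gene from more RNA per cell.

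The log2 signal of IL20 was 7.93, 8.19 and 7.57 in M1 replicates 1, 2 and 3, against 5.77, 5.29 and 5.34 in control replicates 1, 2 and 3. The groups were far apart: the lowest M1 signal lay 1.80 above the highest control signal, while the M1 arrays spanned 0.62 and the control arrays 0.48. The means were 7.90 ± 0.31 with M1 protein and 5.47 ± 0.26 in control (SD, n = 3 each), a log2 change of 2.43 ± 0.18 (SE), or 5.39-fold. Without the M1 array of replicate 2 the log2 change was 2.28. In control arrays IL20 was a dim probe set, brighter than 17.9% to 25.8% of the array, and in M1 arrays it was brighter than 60.9% to 71.1%. At the dim end RMA compresses differences, so the size of this fold is less certain than its direction.

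The log2 signal of IL24 was 8.56, 8.37 and 8.81 in M1 replicates 1, 2 and 3, against 6.26, 6.31 and 5.81 in control replicates 1, 2 and 3. Here too every M1 array was above every control array, with a gap of 2.06 between the nearest arrays of the groups. The means were 8.58 ± 0.22 with M1 protein and 6.12 ± 0.27 in control (SD, n = 3 each), a log2 change of 2.46 ± 0.16 (SE), or 5.49-fold. Without the M1 array of replicate 2 the log2 change was 2.56. IL24 was brighter than 73.2% to 78.1% of the probe sets in M1 arrays and than 26.5% to 36.8% in control arrays. Its control signals were thus low too, and the caution on the size of the fold holds here as well. The annotation in the authors' deposited table marks neither probe set as cross-hybridising.

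**Figure D1:**
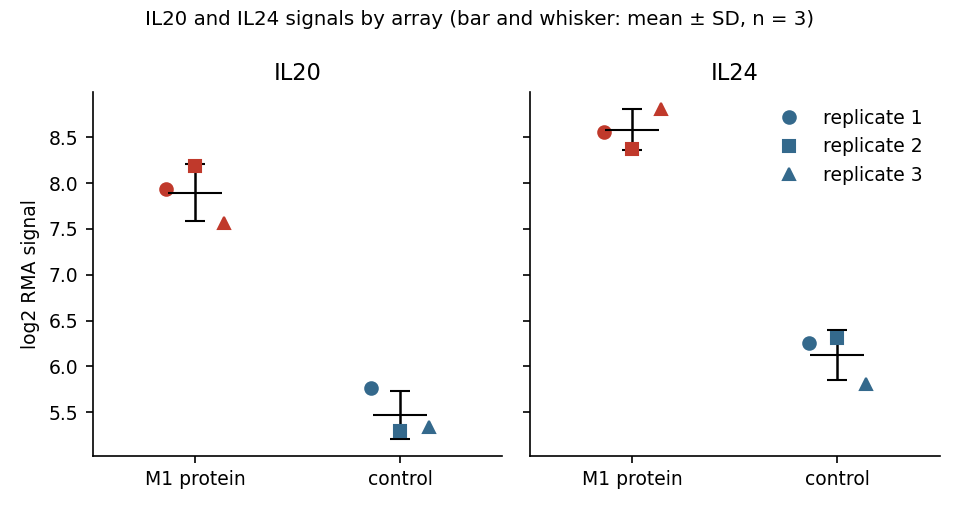
Log2 RMA signal (vertical axis) of IL20 and IL24 in the 3 M1 arrays (red, left) and the 3 control arrays (blue, right); marker shapes give the replicate number, and the bar and whiskers the mean ± SD. For both genes all M1 signals lie above all control signals, with gaps of 1.80 for IL20 and 2.06 for IL24.

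In limma, fitted across all 22119 probe sets, both members were called higher, as were 11.6% of all probe sets, and both had all M1 arrays above all control arrays, as had 18.6% of all. Since the authors had selected both on this contrast, nothing is read from these counts. With each array centred on its median the probe sets that passed split into 3578 higher and 3670 lower, against 2555 higher and 4690 lower as deposited, and both members were higher under either scaling. Ranked by log2 change among all probe sets, IL24 was number 33 and IL20 number 35. Among the 303 named probe sets that were higher they were number 29 and number 31. The authors' deposited table gave a SAM score of 2.82 and a fold of 5.47 for IL24, and a SAM score of 2.69 and a fold of 5.41 for IL20. In the authors' deposited table the p-value of IL24, 0.000345, was number 332 of 497 from the smallest. That of IL20, 0.000576, was number 410 of 497 in the authors' deposited table, whose largest p-value was 0.000999. By score both stood near the top of that table, at numbers 50 and 51, and by p-value both stood in its lower part.

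The spread between replicates was wide for both genes. The pooled SD within groups was 0.29 for IL20, above that of 96.8% of all probe sets and of 99.2% of the named ones. For IL24 it was 0.25, above that of 94.5% of all and 98.8% of the named probe sets. These shares were not matched for signal level, and the control signals of both genes were low. The named probe sets had been selected in part by a p-value, which favours small spread, so nothing is read from the shares among them. The average changes of the pair were close, but the arrays did not order them alike. Among M1 arrays IL20 was highest in replicate 2 and lowest in replicate 3, while IL24 was highest in replicate 3 and lowest in replicate 2. The deviation of IL20 from its M1 mean was 0.04, 0.29 and -0.33 in replicates 1, 2 and 3, and that of IL24 was -0.02, -0.21 and 0.23. In control arrays the deviations of IL20 were 0.30, -0.17 and -0.13, and those of IL24 were 0.13, 0.18 and -0.32. The genes thus deviated in opposite directions in M1 replicates 2 and 3 and in control replicate 2, and in the same direction in control replicates 1 and 3. In M1 replicate 1 both lay close to their M1 means. Deviations within a group sum to 0, so these directions are not independent of each other.

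**Figure D2:**
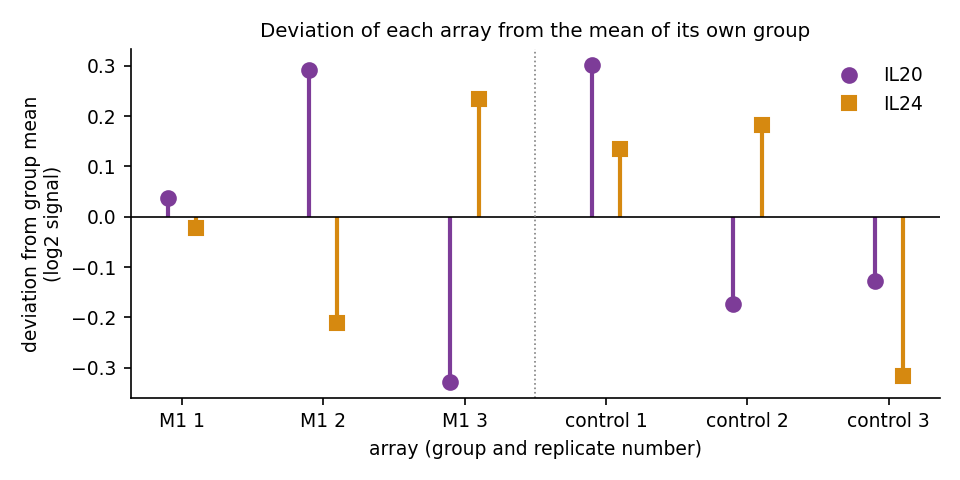
Deviation of each array's log2 signal from the mean of its own group (vertical axis), for IL20 (circles) and IL24 (squares), with M1 arrays left of the dotted line and control arrays right. In M1 replicate 2 IL20 lies at 0.29 and IL24 at -0.21, and in M1 replicate 3 IL20 lies at -0.33 and IL24 at 0.23.

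Taken within each array, the log2 signal of IL24 minus that of IL20 was 0.63, 0.18 and 1.25 in M1 replicates 1, 2 and 3, against 0.49, 1.01 and 0.47 in control replicates 1, 2 and 3. The groups overlap in this difference, with means of 0.68 ± 0.54 with M1 protein and 0.66 ± 0.31 in control (SD, n = 3 each). The log2 changes of the pair therefore differed by 0.03, with a 95% interval from -0.96 to 1.02 on 4 residual degrees of freedom. That interval is wide enough to hold a difference of nearly 1 on the log2 scale either way, so these arrays do not show that the changes were equal.

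Of the receptor chains, IL20RA, which pairs with IL20RB to bind both cytokines, was lower with M1 protein. Its log2 signal was 6.621, 6.747 and 6.629 in M1 replicates 1, 2 and 3, against 7.502, 7.582 and 7.737 in control replicates 1, 2 and 3. The direction is opposite to that of the ligands. The means were 6.67 ± 0.07 with M1 protein and 7.61 ± 0.12 in control (SD, n = 3 each), and on the log2 scale the signal fell by 0.94 ± 0.08 (SE). IL20RA was number 90 of 194 lower named probe sets by size of change. It was the only one of 7 receptor chains of the family with a name in the table, and 21.2% of all probe sets passed the limma test with a lower signal. It too had been selected by the authors on this contrast. IL20RB, IL22RA1 and the other chains carry no name in the table and are not analysed here, which says nothing about their levels.

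The table names 2.25% of all probe sets, and 61.0% of those it names were higher. Of 9 ligands of the IL-10 family, only IL20 and IL24 were named, and both were higher. Of 16 genes of JAK and STAT signalling and its inhibitors only SOCS3 was named, which encodes a STAT3-induced inhibitor of cytokine receptors. SOCS3 had log2 signals of 9.25, 9.09 and 8.95 in M1 replicates 1, 2 and 3, against 7.25, 7.30 and 6.95 in control replicates 1, 2 and 3. Its log2 change was 1.93 ± 0.12 (SE), and all its M1 arrays were above all control arrays, as for 18.6% of all probe sets.

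Of 14 genes of the p38 kinase branch and of proteins that bind AU-rich elements in messenger RNA, 5 were named, 4 higher and 1 lower, beside 61.0% higher in the whole table. The p38 branch is known to stabilise cytokine transcripts that carry such elements, and ZFP36, ZFP36L1 and ZFP36L2 encode proteins that destabilise them. The log2 changes were 2.18 ± 0.07 (SE) for ZFP36, 1.56 ± 0.06 (SE) for ZFP36L2 and 1.44 ± 0.07 (SE) for ZFP36L1. MAP2K3, a kinase that activates p38, was higher by 0.86 ± 0.05 (SE), whereas MAPK14, which encodes p38 alpha itself, fell by 0.74 ± 0.05 (SE). The signals of MAPK14 were 9.53, 9.55 and 9.55 in M1 replicates 1, 2 and 3, against 10.29, 10.27 and 10.27 in control replicates 1, 2 and 3, with little spread within groups.

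Of 26 keratinocyte genes listed as responsive to IL-20 family cytokines, 5 were named and all 5 were higher. They were CXCL8, a neutrophil-attracting chemokine (log2 change 5.05 ± 0.14 SE), HBEGF, an EGF receptor ligand (3.25 ± 0.07 SE), the cytokine gene IL1B (2.24 ± 0.10 SE), the vascular factor gene VEGFA (1.88 ± 0.06 SE) and KRT17, a wound keratin, at 2.15-fold. Higher signals made up 61.0% of the whole table, and its median log2 change was 0.86, against 0.0032 over all probe sets. S100A7, DEFB4A, KRT16 and the differentiation genes FLG, LOR and IVL of the same list carried no name there. The lists were drawn up with earlier results of these data known, so their counts are descriptions.

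**Figure D3:**
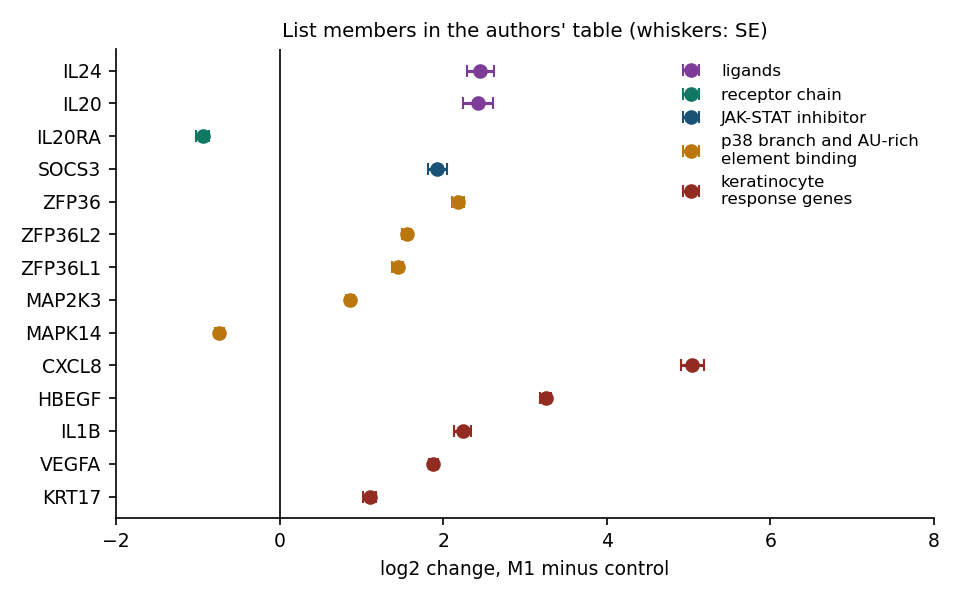
Log2 change, M1 minus control (horizontal axis, points with SE), of the genes named in the authors' table from the lists of ligands, receptor chains, JAK-STAT signalling, the p38 branch with AU-rich element binding proteins, and keratinocyte response genes. IL24 at 2.46 and IL20 at 2.43 lie right of 0 with most list members, while IL20RA at -0.94 and MAPK14 at -0.74 lie left of it.

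In the authors' annotation 12 probe sets of the table carried the term cytokine activity, and 12 of 12 were higher, beside 61.0% of all its probe sets. CXCL8 and HBEGF, whose log2 changes of 5.05 and 3.25 were larger, did not carry the term. Among the 12, ordered by log2 change, IL24 and IL20 came next after BMP2, a bone morphogenetic protein (2.72 ± 0.08 SE). They were followed by INHBA, which encodes the activin A subunit (2.39 ± 0.09 SE), the GM-CSF gene CSF2 (2.30 ± 0.15 SE) and IL1B. The places from IL24 to CSF2 are not separated by more than the SE of IL20 or IL24, and the order was not tested. Lower in the order came VEGFA, CLCF1, a cytokine of the IL-6 family (1.75 ± 0.08 SE), IL1A (1.75 ± 0.07 SE), IL11 (1.65 ± 0.07 SE), IL36G (1.32 ± 0.09 SE) and NRG1 (0.97 ± 0.09 SE). IL20 and CLCF1 were the only genes of the table annotated with positive regulation of Stat3 tyrosine phosphorylation. IL20 alone was annotated with positive regulation of keratinocyte differentiation. The annotation of IL24 gave apoptosis, a term carried by 32 probe sets of the table with IL24 among them, 28 higher and 4 lower, beside 61.0% higher in the whole table.

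Likeness of profile was measured as the root mean square difference of log2 signals over the 6 arrays, each gene taken minus its own control mean. This measure holds the M1 change itself, so near genes are those with about the same change, and it says nothing of shared control. Among the named genes nearest to IL20 were CSF2 (0.15), the AP-1 gene FOS (0.16), the early growth response gene EGR1 (0.20) and FZD8, a Wnt receptor gene (0.20). CSF2 had log2 signals of 6.86, 6.81 and 6.53 in M1 replicates 1, 2 and 3, against 4.73, 4.19 and 4.39 in control replicates 1, 2 and 3. Its control signals were dim, each under the 25th percentile of signals on all 6 arrays (5.71 to 5.79), so the size of its change, and with it its likeness to IL20, is less certain. Like IL20 it was lowest in replicate 3 among M1 arrays and highest in replicate 1 among control arrays. The same held for FOS, EGR1 and FZD8, so it was not particular to CSF2. The 2 orders with replicate 3 lowest among M1 arrays had 82 and 70 of the 303 named higher probe sets. The 5 nearest to IL24 were GADD45B, a stress response gene (0.18), INHBA (0.20), FZD8 (0.20), RNF144B, a ubiquitin ligase gene (0.22), and NR4A3, an orphan nuclear receptor gene (0.22). IL20 and IL24 differed from each other by 0.36, so IL24 was number 31 of 496 in likeness to IL20, and IL20 was number 30 in likeness to IL24. The median difference from named higher genes was 0.87 for IL20 and 0.88 for IL24.

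Around the pair, 7 other genes of the authors' table lay within 5 Mb on chromosome 1, and all 7 were higher, as were 61.0% of all its probe sets. The closest were YOD1, a deubiquitinase gene 139.7 kb after IL24 (log2 change 1.65 ± 0.06 SE), RASSF5, a Ras effector gene 276.1 kb before IL20 (1.11 ± 0.06 SE), and CD55, which encodes a complement regulator, 417.3 kb after IL24 (1.83 ± 0.07 SE). Further out were BTG2 (1.55 ± 0.08 SE), PPP1R15B (0.91 ± 0.07 SE), the laminin gene LAMB3 (0.75 ± 0.06 SE) and the zinc exporter gene SLC30A1 (1.09 ± 0.06 SE). The log2 changes of IL20 and IL24 were above all 7, and these differences were not tested.

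**Figure D4:**
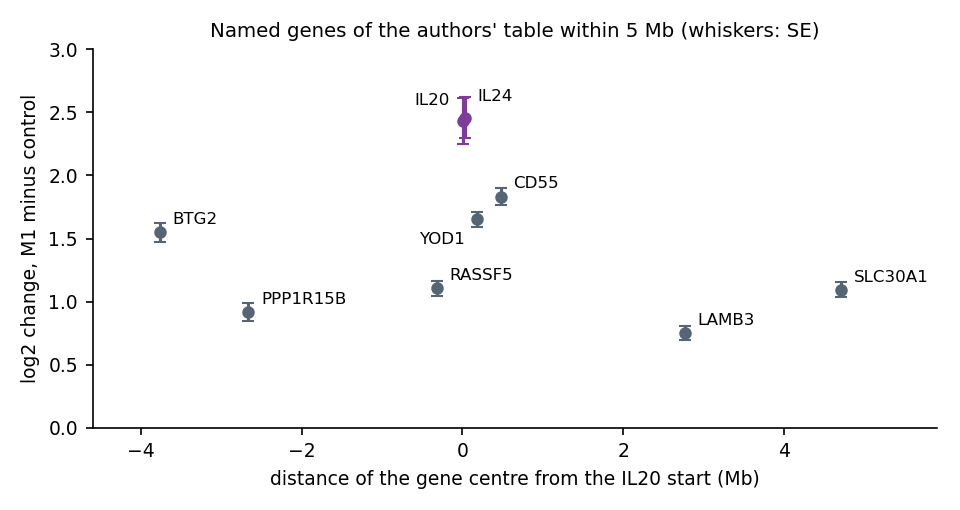
Log2 change, M1 minus control (vertical axis, with SE), of the 9 genes of the authors' table within 5 Mb, against the distance of the gene centre from the IL20 start in Mb (horizontal axis). IL20 and IL24 at 2.43 and 2.46 lie above CD55 at 1.83 and YOD1 at 1.65, and the other 5 lie between 0.75 and 1.55.

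Unnamed probe sets with IDs next to those of the pair had not entered the authors' table, which by itself favours small changes among them. They could be tested. In the table, probe set IDs followed the order of starts on all but 2 of 45 chromosome strands. Whether the strand of the pair was among those 2 was not recorded, so IDs next to theirs need not be neighbours on the chromosome. Between the IDs of IL20 and IL24 there were 0 measured probe sets. The probe set with the next lower ID, 16676661, averaged 5.69 ± 0.23 with M1 protein and 5.53 ± 0.01 in control (SD, n = 3 each). Its log2 change of 0.16 ± 0.11 (SE) did not pass (limma adjusted p = 0.332). The next higher ID, 16676693, averaged 9.77 ± 0.09 with M1 protein and 9.63 ± 0.04 in control (SD, n = 3 each). Its log2 change of 0.14 ± 0.07 (SE) did not pass either (limma adjusted p = 0.152). A p-value that misses the threshold does not show that these probe sets did not change, but both changes were small beside those of IL20 and IL24. The 2 IDs before 16676661 had higher signals that passed, 16676643 by 0.38 ± 0.06 (SE, limma adjusted p = 0.00321) and 16676633 by 0.77 ± 0.07 (SE, limma adjusted p = 0.000249). The 2 IDs after 16676693 did not pass, 16676720 at 0.18 ± 0.12 (SE, limma adjusted p = 0.301) and 16676738 at 0.29 ± 0.12 (SE, limma adjusted p = 0.1). Over all probe sets, 11.6% passed with a higher signal. The genes and positions of these probe sets are not given in the files used here.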

How the data were processed

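RNA of 3 M1 and 3 control samples was measured on 1-colour arrays. The authors deposited RMA signals on the log2 scale, with 1 value per array and probe set, from Affymetrix Expression Console 1.1.2, per the submitters' processing notes. Per the file headers, the deposited table adds a SAM score, a fold as a ratio of means of unlogged signals, and an unadjusted p-value from the t-distribution. Its signals equal those of the value table, with a largest difference of 0. Groups and replicate numbers come from the sample titles, and 0 columns of other series were present. The name of the deposited table also holds values for q and for p, without saying how they were applied. How its 497 probe sets were chosen beyond its name and headers is not given in the labels or files.

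The fit used limma 3.58.1 in R 4.3.3 (lmFit, then eBayes) on all 22119 probe sets, M1 minus control, with no filter, and p-values were adjusted by Benjamini-Hochberg and called under 0.05. SE is that of the fit, with 3.11 prior degrees of freedom. It had been tested on simulated data with known changes. Symbols were updated through RefSeq accessions (476 of 497 matched). Sequences are RefSeq's, GRCh38.p14, with windows for both genes. Named genes were the pair, the 5 nearest profiles, table genes within 5 Mb and list members in the table; 1 result of this rule is not reported here. The members and lists were chosen with earlier results of these data known. Alternatives were 2 other scalings, the replicate block, a filter on dim probe sets, other variance priors, array weights, an unequal-variance t-test, unlogged means, medians and each sample left out. The number of arrays limits the precision.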

Additional observations from a re-analysis of the deposited data

How the results depend on the processing

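The log2 changes of IL20 and IL24 kept their direction and stayed within 1 SD between replicates in 12 of 12 alternatives each, at 2.28 to 2.59 for IL20 and 2.30 to 2.56 for IL24. Both ranges came from leaving out 1 sample. The direction could not turn there, because the groups do not overlap. The difference of the changes, IL24 minus IL20, was 0.03 and lay between -0.25 and 0.28 when 1 sample was left out: it was negative without M1 replicate 3 or without control replicate 1 or 3, so its sign rests on single arrays. With the replicate number as a block the changes were 2.43 and 2.46 as before, by construction, and 5821 probe sets passed, against 7245 without it. Same-numbered samples deviated from their group means with correlations of -0.12, -0.12 and -0.0011, so the numbers gave no sign of pairing. Leaving out single samples gave 5386 to 6763 probe sets that passed. The unequal-variance test with Benjamini-Hochberg gave 3864 (1438 higher, 2426 lower); the cause was not tested. The other counts lay within 1.5 times the 7245 reported. Low signal limits the control values of IL20, whose mean of 5.47 was under the 25th percentile of every array (5.71 to 5.79). Those of IL24 were low too, brighter than 26.5% to 36.8% of the probe sets.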

Other observations

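The order of the 3 M1 replicates seen for IL20, with replicate 2 highest and replicate 3 lowest, was shared by 70 of the 303 named higher probe sets (23.1%), IL20 included. The order seen for IL24, with replicate 3 highest and replicate 2 lowest, was shared by 43 of 303 (14.2%). The most frequent of the 6 orders, with replicate 1 highest and replicate 3 lowest, had 82 of 303 (27.1%). Probe sets of 1 array share its processing, so these counts describe the arrays and are not independent observations.

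The tissue annotation in the authors' deposited table lists skin among the sources of IL24 transcripts and not among the 3 terms given for IL20, while 433 of its 497 probe sets list skin.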
